A study of Homo sapiens with 6 samples.

Results

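The COPI coat genes and ARF1 were followed in Rh30 cells after knock-down of DDX5, an RNA helicase gene. The set has 10 genes out of 35580 to which the deposited transcripts could be joined: the coatomer subunit genes COPA, COPB1, COPB2, COPE, COPG1, COPG2, ARCN1, COPZ1 and COPZ2, and the small GTPase gene ARF1. It was selected on a measured value of these libraries, the lower level of ARCN1 in siDDX5 cells. The ARCN1 difference is therefore given as a description, and it supports nothing about the set. All 10 genes passed the filter on low counts and were tested, among 15223 genes in all.

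All 6 libraries came from Rh30, a line of alveolar rhabdomyosarcoma cells in which the PAX3 and FOXO1 genes are fused. There were 3 libraries labelled control and 3 labelled siDDX5, the latter from cells with DDX5 knocked down. The sources used here give neither the control reagent, the sequence of the knock-down reagent nor the time after knock-down. The libraries are called biological replicates in the series description, but what was separate between them is not stated, so p-values measure the spread between these libraries. Between 18202402 and 26156858 estimated counts were held by each library, with the siDDX5 libraries the shallower ones in all cases. DDX5 itself was at 1352, 1434 and 1137 CPM, estimated counts scaled to a common library total, in control replicates 1, 2 and 3, and at 549, 504 and 396 CPM in the siDDX5 replicates. The 6 rhabdomyosarcoma markers (MYOD1, MYOG, DES, CHRNA1, FGFR4 and PAX3) summed to 1041 to 1328 TPM, a level scaled for transcript length as well, in control and to 995 to 1051 TPM in siDDX5 libraries. Fibroblast, epithelial, leukocyte and endothelial markers summed to at most 36.9, 1.42, 3.48 and 7.27 TPM in any library.

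Coatomer is a protein complex that is recruited from the cytosol to Golgi membranes by ARF1 in its GTP-bound form. There it shapes COPI vesicles, which return escaped endoplasmic reticulum proteins and cargo receptors from the Golgi and move material between Golgi cisternae. Within coatomer, the beta, gamma, delta and zeta subunits form a part related to the clathrin adaptors, and the alpha, beta-prime and epsilon subunits form an outer cage-like part. ARCN1 encodes the delta subunit, archain. Gamma and zeta each have a pair of paralogous genes, COPG1 with COPG2 and COPZ1 with COPZ2.

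The promoters of these genes had a short word in common that played no part in choosing them. The word is GACGTG, 6 bases long, searched on both strands from 250 bases before to 50 bases after each RefSeq start site (GRCh38.p14). It lies inside the longer element bound by the unfolded protein response factors XBP1 and ATF6. It was chosen after the members' promoters had been read, so its count among the members is no independent support. It was present in 9 of the 10 genes, COPG2 being the exception. Over all 27305 genes with a promoter sequence 9.34% held it, and among the 11356 tested genes with one 12.7% did. Of the 68 partner genes with a sequence 16 held it (23.5%), and 6 of these were among 10 genes of the COPII coat. The windows below are shown because they carry this shared feature. Each runs 5′ to 3′ on the strand of its gene, with the word, or its reverse complement CACGTC, in capitals.

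ARCN1, chr11:118572378-118572407, plus strand: cttccggttgaaGACGTGgcttggggccgc
COPA, chr1:160343227-160343256, minus strand: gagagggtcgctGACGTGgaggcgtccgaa
COPB1, chr11:14499841-14499870, minus strand: cccacccccttcCACGTCagccaaggactc
COPB2, chr3:139389632-139389661, minus strand: tcccggaagttcCACGTCagtcagtctgac
COPE, chr19:18919373-18919402, minus strand: ttgcttccggctGACGTGtctttcaggaag
COPG1, chr3:129249585-129249614, plus strand: agagcgctgggcGACGTGgccagtcggggc
COPZ1, chr12:54325126-54325155, plus strand: cttttgcggctcCACGTCggcaccagctgc
COPZ2, chr17:48037748-48037777, minus strand: atgcagcggcccgaggcctggcCACGTCcg
ARF1, chr1:228082681-228082710, plus strand: cccggaggcgctGACGTGgccgccgtcaga

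In these 9 genes the word began between 47 bases before (COPB1) and 42 bases after (COPZ2) the start site. A match describes the letters only. Whether the word has a part in the levels of these genes was not tested.

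ARCN1, the delta subunit, was the member that fell. The gene (ENSG00000095139.13) lies on the plus strand of chromosome 11 at positions 118572390 to 118603033 of GRCh38. Control replicates 1, 2 and 3 had 187, 187 and 189 CPM of ARCN1, and siDDX5 replicates 1, 2 and 3 had 117, 109.8 and 109 CPM. The 3 control libraries lay within a few CPM of each other and far above all 3 siDDX5 libraries. On average ARCN1 stood at 188 ± 1.02 CPM in control and at 112 ± 4.19 CPM in siDDX5 cells (SD, n = 3 each). This was a 1.68-fold lower level, with a log2 fold change of -0.75 (standard error 0.09, 95% interval -0.96 to -0.54). In the quasi-likelihood fit of edgeR its p, adjusted over all genes by Benjamini-Hochberg, was 0.0231.

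ARCN1 was thus 1 of 25 genes called at an adjusted p under 0.05, which is 0.164% of those tested, and 17 of the 25 were lower in siDDX5 cells. Its change was the smallest of those 17, and 1.19% of all tested genes had a log2 fold change as low or lower. With the replicate number as a block 396 genes were called (2.6%), and ARCN1 stood at an adjusted p of 0.0054. Leaving out any 1 of the 6 libraries kept its log2 fold change between -0.78 and -0.72 but ended the call, with 0 to 15 genes then called. The adjusted p of ARCN1 lay between 3.07e-09 and 0.127 across the alternatives.

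**Figure D1:**
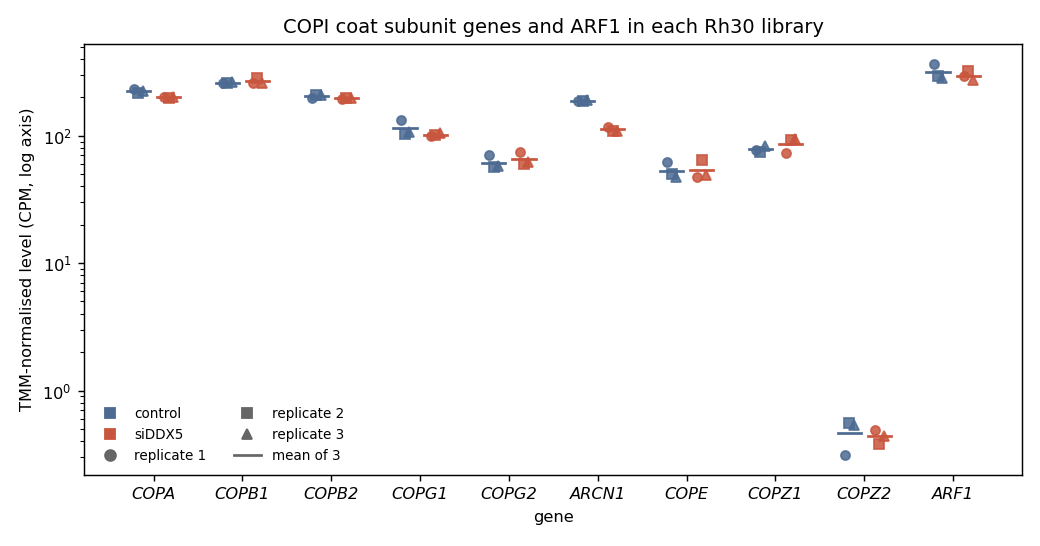
Level of each of the 10 genes in each library, in TMM-normalised CPM on a log axis, control in blue and siDDX5 in red, with marker shapes for replicates and bars for the mean of 3. ARCN1 is the gene with the wide gap between groups, 187 to 189 against 109 to 117 CPM, and COPZ2 lies far below the rest.

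The other large subunits of the adaptor-like part stayed closer to their control levels. COPB1, the beta subunit, was at 257, 259 and 263 CPM in control and 261, 285 and 261 CPM in siDDX5 replicates. Its groups overlapped, with a log2 fold change of 0.05 (95% interval -0.16 to 0.26, edgeR adjusted p 0.883). COPG1, the more abundant gamma subunit gene, was at 133, 103 and 107 CPM in control and 98.9, 101 and 105 CPM in siDDX5 replicates. Control replicate 1 was the high library, the groups overlapped, and the log2 fold change was -0.17 (95% interval -0.44 to 0.10, adjusted p 0.624). Its paralog COPG2 was at 70, 56.4 and 57.5 CPM in control and 74.4, 60.2 and 62.3 CPM in siDDX5 replicates. Replicate 1 was the highest library of COPG2 in both groups, and the log2 fold change was 0.10 (95% interval -0.19 to 0.39, adjusted p 0.82).

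COPZ1 encodes the main zeta subunit, the small partner of the gamma subunit. It was at 77.3, 74.7 and 82.5 CPM in control and 73.7, 92 and 93.5 CPM in siDDX5 replicates. The siDDX5 libraries included both the lowest and the highest values, and the log2 fold change was 0.14 (95% interval -0.12 to 0.41, adjusted p 0.691). COPZ2, its paralog, rested on 7 to 13 counts a library, with means of 0.467 ± 0.136 CPM in control and of 0.438 ± 0.0575 CPM in siDDX5 libraries (SD, n = 3 each). A count of 3 corresponded to 0.115 to 0.165 CPM without the TMM factors, so COPZ2 was close to the smallest level the depth could show. The 95% interval of COPZ2 ran from -0.94 to 0.78 on the log2 scale.

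None of the cage-like subunits, alpha, beta-prime and epsilon, passed the test. COPA, the alpha subunit, was at 231, 215 and 226 CPM in control and 201, 199 and 202 CPM in siDDX5 replicates. All 3 siDDX5 libraries were below all 3 control libraries, with a log2 fold change of -0.16 (95% interval -0.37 to 0.05, adjusted p 0.555). COPB2, the beta-prime subunit, was at 199, 209 and 207 CPM in control and 195, 197 and 198 CPM in siDDX5 replicates. Here too the groups did not overlap, though by a narrow margin, and the log2 fold change was -0.06 (95% interval -0.27 to 0.15, adjusted p 0.847). COPE, the epsilon subunit, was at 61.8, 50.1 and 47.1 CPM in control and 47, 64.5 and 49 CPM in siDDX5 replicates. Each group had 1 high library, and the log2 fold change was 0.01 (95% interval -0.33 to 0.36, adjusted p 0.987).

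ARF1, the GTPase that recruits the coat, was at 368, 294 and 282 CPM in control and 294, 319 and 272 CPM in siDDX5 replicates. Control replicate 1 was the high library and the groups overlapped. The log2 fold change was -0.09 (95% interval -0.38 to 0.19, adjusted p 0.827).

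Across the 10 genes, 1 was called both without and with the replicate block, and it was ARCN1. The same gene was the only one with an unadjusted p under 0.05, a mark reached by 11.4% of all genes tested. Leaving out ARCN1, whose level chose the set, all siDDX5 libraries were below all control libraries in CPM for 2 of the other 9 genes, COPA and COPB2, where 9.16% of all genes had that order. In TPM the COPB2 groups overlapped, at 138, 149 and 143 against 141, 128 and 141, while those of COPG1 did not, at 74.5, 67.1 and 71.7 against 62.4, 55.9 and 57.4. No member had all siDDX5 libraries above all control libraries in CPM, an order that 1350 of the 15223 genes tested had. The 9 genes other than ARCN1 had log2 fold changes from -0.17 to 0.14 with a median of -0.06, where the median over all genes was -0.00. The intervals of COPA, COPB1 and COPB2 reached no further than 0.37 below and 0.26 above 0 on the log2 scale. These bounds do not show that the genes were unaffected.

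**Figure D2:**
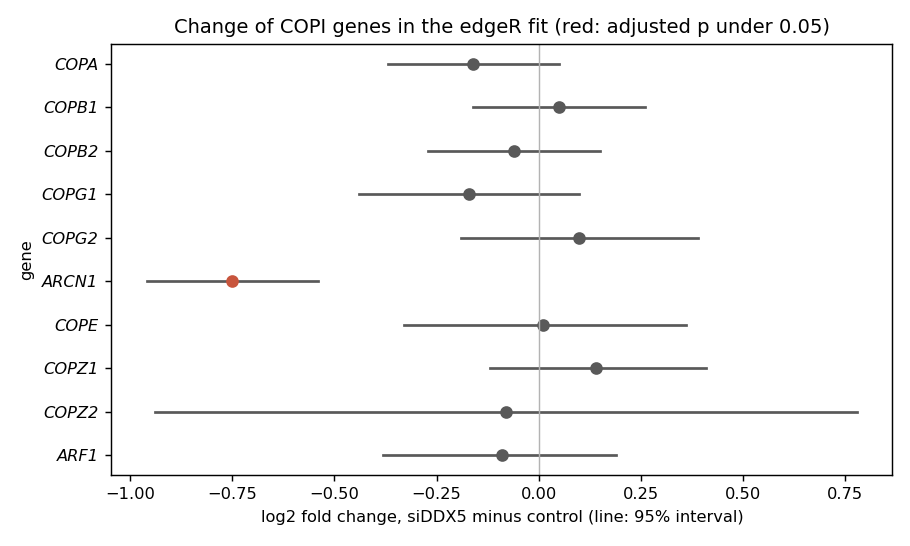
Log2 fold change of each member, siDDX5 minus control, with its 95% interval as a line and a red point where the edgeR adjusted p was under 0.05. ARCN1 at -0.75 is the red point, and the intervals of the other 9 genes span 0.

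On the TPM scale, which is per transcript length and so allows genes to be compared, ARF1 was the most abundant member and ARCN1 lay in the middle. In control cells the order was ARF1 (312 ± 39.2 TPM, SD, n = 3), COPB1 (185), COPB2 (143), COPZ1 (119), COPA (112), ARCN1 (85.9), COPG1 (71.1), COPE (69.3), COPG2 (35.9) and COPZ2 (2.86). Of neighbours in this order, COPZ1 and COPA overlapped between libraries, as did COPG1 and COPE. In siDDX5 cells ARCN1 stood at 50.3 ± 6.32 TPM (SD, n = 3), below COPE (68.8) and COPG1 (58.6), so that it moved from the rank of 6 to that of 8. Its siDDX5 values of 57.2, 44.7 and 49 TPM overlapped those of both its neighbours there, COPG1 and COPG2. ARF1 and COPB1 held the first ranks in both groups without overlapping the gene below them. COPB2 came next by its mean in both, but in siDDX5 cells it overlapped COPZ1 (137 against 130.2 TPM).

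The share of delta in the coatomer mRNA followed the same split. Delta made up 10.4%, 10.5% and 10.4% of the summed TPM of the 7 subunits in control replicates 1, 2 and 3, and 7.34%, 6.14% and 6.31% in siDDX5 replicates. Set against the geometric mean of the other 6 subunits, ARCN1 was at 0.717, 0.742 and 0.731 in control and at 0.501, 0.409 and 0.428 in siDDX5 replicates. Both measures contain the ARCN1 values that chose the set, and they are given without a test. The other 6 subunits summed to 736, 725 and 756 TPM in control and 722, 684 and 728 TPM in siDDX5 replicates, with overlap between the groups.

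Among the remaining shares, beta was higher in all 3 siDDX5 libraries, at 24.3%, 24% and 23.2% against 22%, 22.8% and 22.3% in control. These shares add up to a fixed total, so a lower delta share raises the sum of the others. The TPM of COPB1 itself overlapped, at 181, 185 and 188 in control and 189, 175 and 180.4 in siDDX5 replicates. Alpha, beta-prime, gamma, epsilon and zeta overlapped between groups. COPG2 supplied 35.3%, 32.8% and 32.3% of the gamma TPM in control and 42%, 36.2% and 38.5% in siDDX5 replicates, so all siDDX5 libraries were higher although neither paralog passed the test. COPZ2 supplied 2.42 ± 2.03% of the zeta TPM in control and 1.95 ± 1.24% in siDDX5 cells (SD, n = 3 each). The ratio of ARF1 to the summed coat was 0.379 ± 0.0503 and 0.368 ± 0.023 (SD, n = 3 each) in control and siDDX5 cells.

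**Figure D3:**
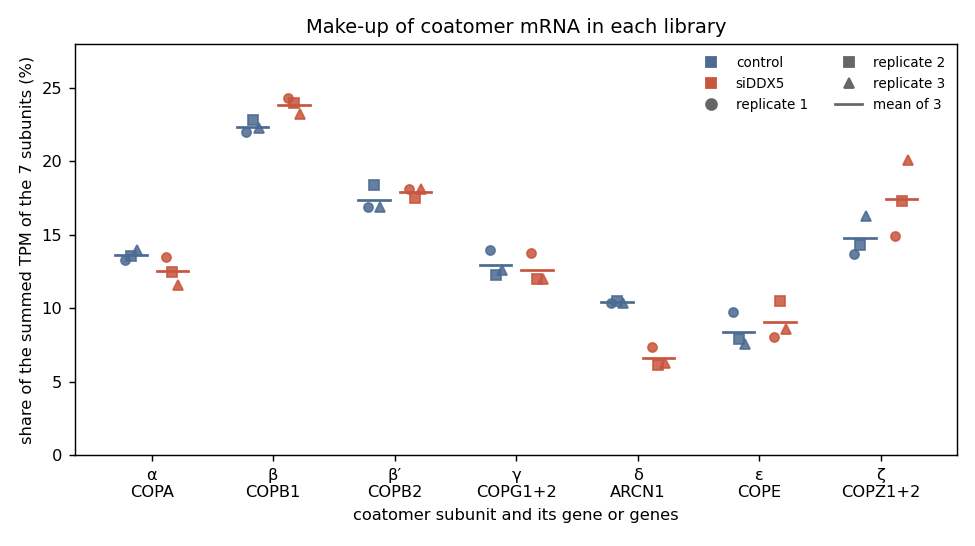
Share of each coatomer subunit in the summed TPM of the 7 subunits, in percent, for each library, control in blue and siDDX5 in red, with bars for the mean of 3 and paralogs added together. The delta share separates the groups, 10.4% to 10.5% against 6.14% to 7.34%, and the beta share does so by a smaller margin. The shares add up to a fixed total that includes delta, and the TPM of COPB1 itself overlapped between groups.

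Of 116 annotated transcripts of the 10 genes in the tables, 57 passed the filter and were tested one by one, and 0 were called by edgeR. This matched the whole table, where 0 of 61174 transcripts (0%) were called without or with the block, and 4334 (7.08%) had an unadjusted p under 0.05. For the members that number was 4 of 57, close to the share over all transcripts. Among the 4 was the main transcript of ARCN1, the gene whose level chose the set. All 4 were lower in siDDX5 cells, but how many of the 4334 were lower was not counted. DESeq2's Wald test called 818 transcripts, 1 of them a member transcript, and limma-trend called 2 or 8 by pseudocount and 0 member transcripts.

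That member transcript was ENST00000264028.5, the main protein-coding transcript of ARCN1, which held most of the gene's counts. Its level, in CPM without the TMM factors here and for all single transcripts, was 172, 173 and 181 in control and 106, 95.4 and 98.6 in siDDX5 replicates. The groups lay far apart, with a log2 fold change of -0.76 (standard error 0.09) and an edgeR adjusted p of 0.192, against 6.49e-13 in DESeq2. It made up 93.3 ± 2.37% of the ARCN1 counts in control and 90.5 ± 0.423% in siDDX5 cells (SD, n = 3 each). The next protein-coding transcripts were minor. ENST00000359415.8 was at 7.08 ± 4.26 and 6.17 ± 0.727 CPM, and ENST00000392859.7 at 5.6 ± 0.67 and 3.41 ± 3.06 CPM, in control and siDDX5 cells (SD, n = 3 each). The latter was at 0.374 CPM in siDDX5 replicate 2, against 6.48 and 3.37 CPM in the other siDDX5 libraries.

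**Figure D4:**
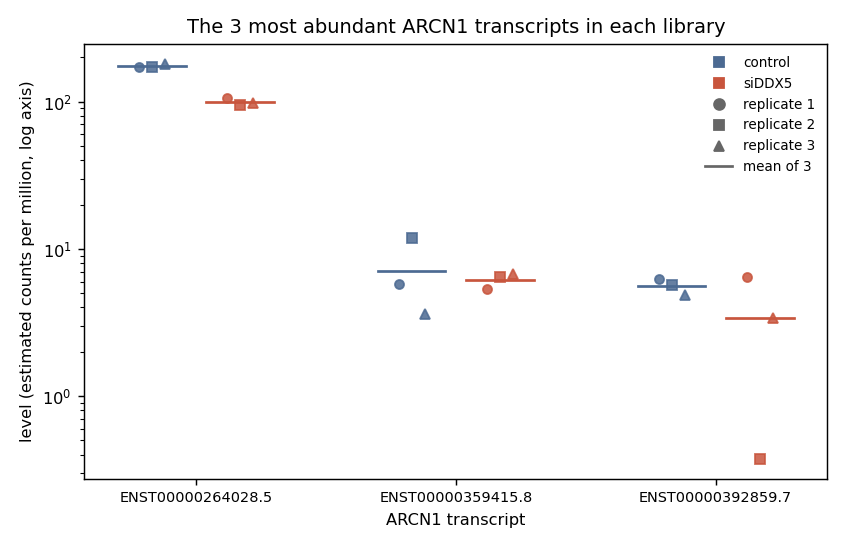
Level of the 3 most abundant ARCN1 transcripts in each library, in CPM on a log axis, control in blue and siDDX5 in red, with bars for the mean of 3. ENST00000264028.5 separates the groups, 172 to 181 against 95.4 to 106, while the minor transcripts overlap.

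ENST00000470558.5 of ARF1, annotated as a processed transcript, was the member transcript with the next lowest p. It was at 28.9, 17.4 and 23 CPM in control and 14.1, 10 and 11.6 CPM in siDDX5 replicates, with a log2 fold change of -0.92 (adjusted p 0.558). It made up 7.32 ± 1.3% of the ARF1 counts in control and 4.1 ± 0.749% in siDDX5 cells (SD, n = 3 each), while the protein-coding ENST00000272102.10 made up 86.6% and 89.2%. The other transcripts with an unadjusted p under 0.05 were the protein-coding ENST00000534234.5 of COPB1 and the retained-intron ENST00000504547.1 of COPG1, the last of them named after its values were seen. ENST00000534234.5 was at 7.81 ± 0.407 and 5.24 ± 0.598 CPM, and ENST00000504547.1 at 0.739 ± 0.184 and 0.247 ± 0.183 CPM, in control and siDDX5 libraries (SD, n = 3 each).

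Some transcript values moved by whole steps between libraries. ENST00000507777.5 of COPB2, protein-coding, was at 7.93, 21.2 and 0 CPM in control and 27, 23.8 and 28.8 CPM in siDDX5 replicates. Its share of the COPB2 counts was 4.67 ± 5.02% in control and 13.6 ± 0.976% in siDDX5 cells (SD, n = 3 each), while the main ENST00000333188.10 held 89.8% and 80.8%. The fitted log2 fold change of 1.53 had a standard error of 1.27 and an adjusted p of 0.867. ENST00000647683.1 of COPA was listed at 0 in siDDX5 replicate 2, and at 21.9 and 19.3 CPM in the other siDDX5 libraries. Its control values were 32.3, 26.4 and 32.3 CPM. COPZ1 had a retained-intron transcript, ENST00000550027.5, that held 15.4% of its counts in control and 15.8% in siDDX5 cells.

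Transcript usage, the share of each transcript within its gene, was tested with edgeR's diffSpliceDGE in 9 of the members, since COPZ2 had too few counts. It was called in 0 of the 9, and 0 had an unadjusted p under 0.05. Over all genes, usage was called in 170 of 10705 (1.59%), and 575 had an unadjusted p under 0.05. The member with the lowest p was COPB2, at an unadjusted p of 0.069 and an adjusted p of 1, or 0.792 with the replicate block.

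ARCN1 overlaps IFT46, an intraflagellar transport gene on the opposite strand, by 581 bases. The library kit keeps strand, but the strand setting of the quantification is not given in the sources used here. IFT46 averaged 9.19 ± 1.32 CPM in control and 7.32 ± 1.17 CPM in siDDX5 libraries (SD, n = 3 each), with a log2 fold change of -0.33 (edgeR adjusted p 0.539). The part of this overlap in the ARCN1 difference was not tested. COPA, COPB2 and COPG2 overlap the opposite-strand genes NCSTN, MRPS22 and MEST by 129, 1624 and 228 bases.

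The 3′ UTR of ARCN1 held a second word, GACGCCA, 7 bases long, which an earlier look at these data had brought up, so its counts are no independent support. It was searched on the sense strand in the annotated 3′ UTR of the most abundant protein-coding transcript of each gene. Among the 10 members it was found in ARCN1 alone, and in the whole table in 266 of 13620 genes (1.95%). The site is shown because it separates ARCN1 from the other coat genes. It lies 48 bases after the stop codon in the last exon, at positions 118600763 to 118600769 of chromosome 11, in each of the 3 ARCN1 transcripts described above. The word is in capitals in the window, which runs 5′ to 3′.

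ARCN1 3′ UTR, chr11:118600752-118600781, plus strand: ttaataaagaaGACGCCAatgatggctgaa

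The ARCN1 UTR, of 2214 bases, was also the longest of the 10, the next being that of COPZ1 with 1326 bases, and a longer UTR has more places for any word. Among genes called lower in siDDX5 cells, 8 of the 16 examined held the word, with ARCN1 counted among the 8. Among genes called higher, 0 of 8 held it. The median UTR length was 1410 bases in the former set, 3005 in the latter and 1107 over all genes examined. The part of UTR length in these matches was not tested. The word came from these same data, so neither these counts nor the medians that follow are independent support. Genes with the word had a median log2 fold change of -0.18 (198 of 266 below 0, 74.4%), and the 13354 genes without it had a median of 0.01 (48.7% below 0). Of the 81 partner genes examined 3 held it: AP3D1, AP1M1 and COG8, with log2 fold changes of -0.56, -0.28 and 0.16. The sequence of the knock-down reagent is not given in the sources used here, so whether the word pairs with part of that reagent, and with it the part of the word in the ARCN1 difference, was not tested. The ARCN1 difference is one between libraries with and without the reagent, and an effect of the lower DDX5 level and an effect of the reagent on ARCN1 itself cannot be told apart in this design.

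The genes most like ARCN1 over the 6 libraries were sought among the 10993 genes that averaged 5 CPM or more, by Pearson's r of log2 CPM. Those reported are CTCF (r 0.9965), FKBP14 (0.9944), RCC2 (0.9943) and ZNF592 (0.9940). Each of them had tight control libraries, all above tight siDDX5 libraries, for example 84.3, 84.3 and 83.1 against 59.7, 59.9 and 57.8 CPM for CTCF. Their own log2 fold changes ran from -0.59 (RCC2) to -0.18 (FKBP14), and none of these genes was called by edgeR, with adjusted p values from 0.0522 (RCC2) to 0.497 (FKBP14). Within the coat, the r with ARCN1 was 0.93 for COPA, 0.79 for COPB2, 0.56 for COPG1 and 0.30 for ARF1. It was -0.06 for COPE, -0.29 for COPG2, -0.51 for COPB1 and -0.56 for COPZ1. These values describe 6 libraries in 2 groups, so a shared group difference alone gives a high r.

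Genes that work with COPI, and genes of the COPII coat and the clathrin adaptors, which are other coats, were read from 6 lists. These lists held 82 genes, called partner genes here, and all of them were tested. Of these 0 were called by edgeR, with 11 at an unadjusted p under 0.05 (4 higher and 7 lower), a mark that 11.4% of all genes reached. By direction, 817 of the 15223 genes reached that mark as higher and 914 as lower. With the replicate block 1, AP3D1, was called, where 2.6% of all genes were, and 20 had an unadjusted p under 0.05, as did 3126 of the 15223 genes. DESeq2 called 1 as well, and limma-trend 0. The median log2 fold change over the 82 genes was 0.01.

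The ARF regulators, which load, unload or resemble ARF1, had a median of 0.02 over 11 genes, with 2 lower and 0 higher at an unadjusted p under 0.05. The GTPase ARF4 was at 0.11 and the GTPase-activating protein ARFGAP3 at 0.19 on the log2 fold change scale. The cargo receptors listed as retrograde had a median of 0.12 over 15 genes, with 1 higher and 0 lower. Their most abundant genes encode the p24 family proteins TMED2 and TMED10. TMED2 was at 247 ± 9.86 CPM in control and 277 ± 26.6 CPM in siDDX5 libraries, and TMED10 at 214 ± 12.8 and 247 ± 12.8 CPM (SD, n = 3 each), with adjusted p values of 0.586 and 0.478. The direction of TMED10 turned with the scale, since its TPM was 247 ± 8.9 in control and 225 ± 16.3 in siDDX5 libraries (SD, n = 3 each).

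The Golgi-to-ER tethers and SNAREs, which dock and fuse the vesicles, had a median of 0.14 over 14 genes, with 1 higher and 0 lower. The SNAREs GOSR2 and YKT6 were at -0.09 and 0.16. The COG complex and Golgi matrix, which hold vesicles and cisternae together, had a median of -0.02 over 14 genes and 0 with an unadjusted p under 0.05. The matrix protein genes GOLGA2 and GORASP2 were at 0.03 and -0.18. The COPII coat, which works in the opposite direction from the endoplasmic reticulum, had a median of -0.01 over 11 genes, with 1 higher and 1 lower. Its inner and outer coat genes SEC23A and SEC31A were at -0.01 and -0.23, the latter with an adjusted p of 0.428.

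The clathrin adaptor subunits, relatives of the adaptor-like part of coatomer, had the lowest median, -0.15 over 17 genes, with 1 higher and 4 lower. AP3D1, which encodes a subunit of the adaptor complex AP-3, was at 183, 173 and 154 CPM in control and 120.2, 121 and 105 CPM in siDDX5 replicates. The groups did not overlap, and the log2 fold change was -0.56 (standard error 0.11, edgeR adjusted p 0.085, or 0.0125 with the replicate block). AP3S1, the small sigma subunit of the same complex, was at 0.27 (adjusted p 0.418), and AP2M1, the mu subunit of AP-2, at 0.08.

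**Figure D5:**
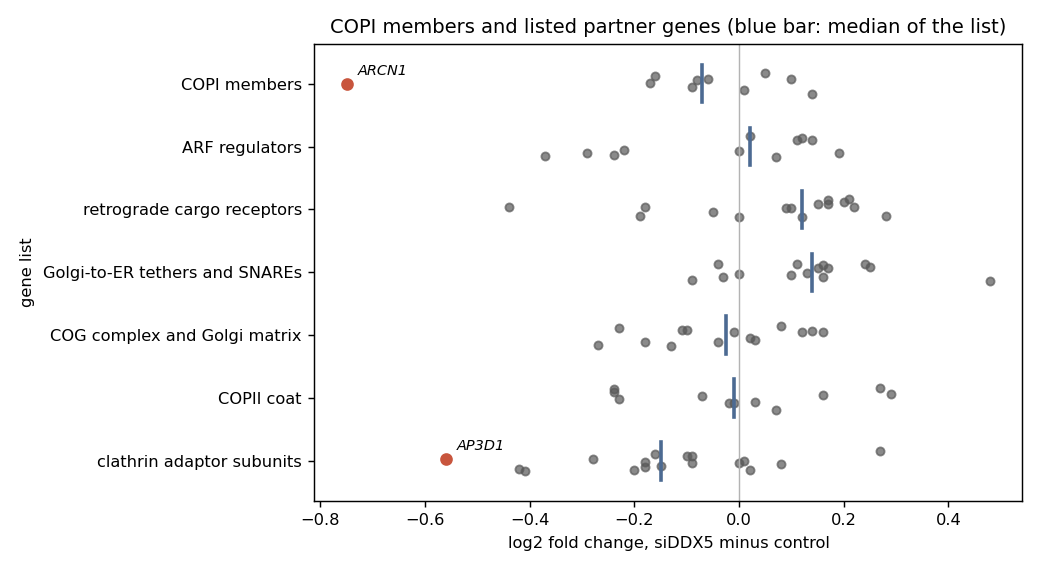
Log2 fold change, siDDX5 minus control, of each COPI member and each of the 82 partner genes by list, with the median of each list as a blue bar and vertical scatter for legibility only. The red points are ARCN1 at -0.75, called without and with the replicate block, and AP3D1 at -0.56, called with the block.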

How the data were processed

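Messenger RNA libraries were prepared with a stranded kit, per the labels' protocols. Per the file headers, each deposited table gives an estimated count and a TPM value per transcript. The submitters' processing notes name bcl2fastq 2.20, FastQC 0.11.8, cutadapt 1.11, kallisto 0.46.0 and the build GRCh38 (hg38). The transcript annotation and strand setting are not given in the sources used here. The estimated counts were deposited by the authors without normalization, and the TPM values were scaled by the authors for transcript length and library total. The quantifier splits ambiguous reads over transcripts, and the SD and standard errors do not include that uncertainty.

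Transcripts were joined to genes with GENCODE release 29. Of 188753 transcripts, 169797 were joined by identifier (all 116 of the members), 15328 by symbol, 890 by position between transcripts of 1 gene, and 2738 were not joined. The joined transcripts held 99.59% to 99.63% of the counts. Estimated counts were summed per gene, rounded, passed through filterByExpr, given TMM factors and put to the quasi-likelihood test of edgeR 4.0.16 (R 4.3.3), with group as the only term. P-values were adjusted by Benjamini-Hochberg over the whole table. Transcripts were tested in the same way, and usage with diffSpliceDGE and Simes' method. The alternatives were DESeq2 1.42.0 size factors and its Wald test, no filter, a mean of at least 50 counts, length-scaled TPM counts, limma-trend (limma 3.58.1) on log2(TPM + 1) and log2(TPM + 0.1) (features averaging 1 TPM or more), the replicate block, and leaving out each library. Each test was run first on simulated counts with known answers. Of 200 planted changes, edgeR recovered 96% for genes and 66.5% for transcripts, and the usage test recovered 24%. False calls numbered 6, 4 and 10 in turn. The planted changes all had 1 size, larger than that of ARCN1, and lay in features averaging at least 50 counts. The simulated spread was the same for all features, so these shares do not carry over to smaller changes or lower counts. With replicate effects planted as well, the gene test recovered 53.5% without the replicate block and 98% with it. A lack of calls, above all for usage, therefore does not show a lack of change.

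Same-numbered libraries, by the numbers in their titles, deviated together from their group means, with correlations of 0.21, 0.27 and 0.58 over 15223 genes, so the blocked values are given where they change a call. The members and lists were chosen with earlier results of these data known. Named were all members, the 3 most abundant transcripts of each and any called, the 2 most abundant genes of each partner list and any called without or with the block, and the 5 genes most correlated with ARCN1, of which 1 is not reported here. Promoters were taken from a RefSeq table of GRCh38.p14, where all 10 members matched, and 3′ UTRs from the GENCODE transcripts.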

Additional observations from a re-analysis of the deposited data

How the results depend on the processing

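The number of genes called, 25, became 323 with DESeq2's Wald test, 136 with no filter and 396 with the replicate block. It became 2 with length-scaled TPM counts, 1 with limma-trend at either pseudocount, and 0 to 15 without 1 library. Of the member genes, 0 were called with length-scaled TPM counts, with limma-trend at either pseudocount, or without any 1 library. ARCN1 kept its direction throughout and was the 1 member called in every other setting. Its log2 fold change was -0.73 with length-scaled TPM counts (adjusted p 0.0755) and -0.77 and -0.78 with limma-trend at pseudocounts of 1 and 0.1 (0.11 and 0.121). Among partner genes, 1 (AP3D1) was called by DESeq2, with no filter and with the replicate block. Transcripts called were 818 with DESeq2, 1 of them a member's, and 8 and 2 with limma-trend at pseudocounts of 1 and 0.1. Genes called for usage, 170, were 395 with no filter, 41 at a mean of at least 50 counts and 219 to 453 without 1 library. Of the members 1 (COPG2) was called for usage with no filter, and 0 to 1 without 1 library. The replicate block changed no call of a member gene.

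Some differences that did not pass the test changed sign. With limma-trend at both pseudocounts COPB1 was at -0.02 and COPE and its transcript ENST00000262812.9 at -0.01. ENST00000241704.7 of COPA was at 0.01 with DESeq2's Wald test, with its size factors and with no filter, and ENST00000359415.8 of ARCN1 at 0.01 with the replicate block. Without 1 library, the ranges were -0.14 to 0.14 for COPE, -0.00 to 0.21 for COPG2, -0.17 to 0.04 for ARF1 and, over 4 fits, -0.31 to 0.01 for COPZ2, which did not pass the filter without control replicate 2 or 3. For transcripts they were -0.43 to 0.40 (ENST00000359415.8), -0.08 to 0.10 (ENST00000241704.7), -0.27 to 0.10 (ENST00000504295.1), -0.13 to 0.21 (ENST00000262812.9), -0.37 to 0.11 (ENST00000598969.5), -0.24 to 0.02 (ENST00000314797.10), -0.80 to 1.92 (ENST00000509889.5), -0.09 to 0.13 (ENST00000272102.10) and -0.18 to 0.11 (ENST00000497165.5). The cause of these changes was not tested. Depth limits COPZ2, which rests on 7 to 13 counts a library.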
